A study of Mus musculus with 9 samples.

Results

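Zinc finger genes named with the symbol Zfp and a number were followed on mouse chromosomes 7 and 13. They were chosen by symbol and by chromosome from the gene table, with earlier results of these 9 libraries known, the strain comparison among them. Of 57180 rows, 383 carried such a symbol and 128 of these lay on the chosen chromosomes, 93 on chromosome 7 and 35 on chromosome 13. The 128 rows held 127 symbols, because Zfp264 had 2 rows. The question was whether zinc finger genes that lie in clusters differ between the 2 strains more than those that lie alone.

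Polyadenylated RNA of 9 hippocampi from male mice was sequenced, in 3 groups of 3 labelled as biological replicates. MAN@SKI II mice were of the inbred BTBR strain and received a brain-targeted nanomicelle described as inhibiting the lipid mediator S1P, 40 mg/kg/day by tail vein for 7 days. Model mice were BTBR mice given vehicle by the same route for 7 days, and Con mice were C57BL/6J mice given vehicle in the same way. All mice were 5 weeks old at the start and 6 weeks old at collection. BTBR is a whole inbred strain used as a model of autism, so Model and Con differ across the genome and not at 1 locus. The labels name the vehicle as normal saline in one place and as PBS in another.

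Most mammalian Zfp genes encode proteins with tandem C2H2 fingers, each of which holds a zinc ion and contacts a few bases of DNA. Many also carry a KRAB domain, which recruits the co-repressor Trim28 and, through it, the histone methyltransferase Setdb1, and many of these proteins silence transposable elements. The KRAB genes multiplied by tandem duplication, so they lie in clusters of similar copies that differ between species and between mouse strains. Not every Zfp gene is of this kind: Zfp36 encodes tristetraprolin, a CCCH protein that binds AU-rich elements and promotes mRNA decay.

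A member was called clustered when another Zfp-number row lay within 250 kb of it. By that limit 106 members were clustered, in 17 groups of 2 or more, and 22 were single. The widest gap accepted was the 229 kb between Zfp640 and Zfp998, and the narrowest left out was the 294 kb from Zfp997 to its neighbour. None of these 3 genes had a count in any library. The longest open reading frame in the GENCODE M21 annotation gave 122 members a predicted protein, of which 121 had at least 1 C2H2 finger by pattern. The exception was Zfp36. Clustered members had a median of 12 fingers and single members a median of 8.5, and a stretch like the KRAB A box was found in 48.0% of clustered and 20% of single members. The same stretch was found in 0.397% of coding genes without a Zfp-number name.

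Some clustered members, mostly of the 2 largest clusters, also shared a promoter word that single members did not hold in these windows. RefSeq promoters of GRCm38.p6, each 250 bases before to 50 bases after a gene's start, were matched for 110 members. The 12-base word ACTACATTTCCC, read on either strand (GGGAAATGTAGT on the other), was found in 22 of them, more than any other word of that length, tied with the word shifted from it by 1 base. All 22 were clustered: it was found in 22 of 92 clustered promoters (23.9%), 0 of 18 single ones, 6 of 197 of Zfp-number genes on other chromosomes (3.05%) and 154 of all 27025 promoters (0.57%). With 1 mismatch allowed it was found in 40 clustered promoters (43.5%), 0 single ones and 1.45% of all. The exact word was concentrated in 2 clusters, at 8 of 17 promoters from Zfp712 to Zfp273 (47.1%) and 9 of 14 from Zfp84 to Zfp146 (64.3%). The word was picked as the commonest among the 110 promoters of members, so its share there is a description. It resembles the site known for human ZNF143, whose mouse counterpart Zfp143 is itself a single member, and no binding was measured here. The promoters below are examples, picked from those in the 2 largest clusters that hold the exact word. They are printed 5′ to 3′ on the strand of the gene, with the 12-base word in capitals. They lie at chr13:67306436-67306535 (minus strand) for Zfp457, chr13:67269117-67269216 (minus) for Zfp458, chr13:67332556-67332655 (minus) for Zfp595, chr13:67061171-67061270 (minus) for Zfp712, chr7:29768485-29768584 (plus) for Zfp84, chr7:29908432-29908531 (plus) for Zfp383 and chr7:30095003-30095102 (plus) for Zfp260.
Zfp457: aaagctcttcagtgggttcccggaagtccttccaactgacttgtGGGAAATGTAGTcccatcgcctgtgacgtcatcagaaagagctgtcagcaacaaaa
Zfp458: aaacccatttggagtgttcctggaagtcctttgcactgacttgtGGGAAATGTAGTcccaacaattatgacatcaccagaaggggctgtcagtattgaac
Zfp595: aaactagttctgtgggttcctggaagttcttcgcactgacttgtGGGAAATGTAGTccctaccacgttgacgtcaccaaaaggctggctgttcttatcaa
Zfp712: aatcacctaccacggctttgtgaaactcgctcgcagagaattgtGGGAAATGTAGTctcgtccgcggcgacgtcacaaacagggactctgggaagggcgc
Zfp84: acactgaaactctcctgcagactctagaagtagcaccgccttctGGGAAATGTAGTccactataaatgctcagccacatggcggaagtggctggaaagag
Zfp383: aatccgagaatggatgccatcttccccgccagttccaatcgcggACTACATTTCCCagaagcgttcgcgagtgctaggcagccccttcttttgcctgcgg
Zfp260: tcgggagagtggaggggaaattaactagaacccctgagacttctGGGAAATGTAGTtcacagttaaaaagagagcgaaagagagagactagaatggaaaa

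Of the 9 called members with a promoter in the table, 3 held the exact word (Zfp457, Zfp595 and Zfp84). The promoters of Zfp459 at chr13:67421369-67421668 (minus) and of Zfp772 at chr7:7209949-7210248 (minus), shown whole as examples of called members without the word, did not hold it.
Zfp459: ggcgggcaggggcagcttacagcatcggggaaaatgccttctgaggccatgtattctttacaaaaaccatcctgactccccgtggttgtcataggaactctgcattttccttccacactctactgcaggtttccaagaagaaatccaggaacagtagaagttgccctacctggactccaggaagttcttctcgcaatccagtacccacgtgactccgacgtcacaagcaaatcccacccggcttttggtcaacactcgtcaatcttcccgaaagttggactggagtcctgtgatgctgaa
Zfp772: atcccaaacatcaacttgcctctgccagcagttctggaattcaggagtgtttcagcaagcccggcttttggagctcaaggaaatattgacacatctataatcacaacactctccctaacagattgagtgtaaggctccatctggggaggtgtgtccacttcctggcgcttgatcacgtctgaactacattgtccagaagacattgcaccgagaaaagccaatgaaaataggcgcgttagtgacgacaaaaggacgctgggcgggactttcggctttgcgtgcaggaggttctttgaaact

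Libraries held 14751054 to 18827093 counts, so that 3 counts amounted to 0.159 to 0.203 CPM, the count scaled to a common library total. The mitochondrial share was 9.63% in MAN@SKI II 2 and 6.26 to 7.15% in the other 8 libraries. Defining neuronal markers were at 224 CPM or more in every library. Summed markers of the choroid plexus, a tissue next to the hippocampus, were at 45.9 to 343 CPM in MAN@SKI II, 37.7 to 288 CPM in Model, against 884 to 2386 CPM in Con libraries, with 4 of 5 called lower in Model than in Con. Oligodendrocyte markers summed to 2116 to 2287 CPM in MAN@SKI II, 2434 to 2665 CPM in Model, against 3888 to 4583 CPM in Con libraries, with 3 of 3 called lower in Model. Astrocyte markers summed to 854 to 900 CPM in MAN@SKI II, 839 to 875 CPM in Model, against 1121 to 1143 CPM in Con libraries, with 2 of 3 called lower in Model. Microglia markers summed to 71.8 to 96.2 CPM in MAN@SKI II, 54.9 to 65.9 CPM in Model, against 86.5 to 103 CPM in Con libraries, with 1 of 3, C1qb, called lower in Model. Cx3cr1 was lower in Model (-1.03 ± 0.51 on the log2 scale) and P2ry12 higher (0.31 ± 0.41), and neither was called. Fewer cells of a type and less RNA per cell cannot be told apart in such tissue. The build named for these data, GRCm39, is based on C57BL/6J, so a strain difference in RNA and a difference in how well BTBR reads align cannot be told apart.

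The members were expressed at low levels. Of 128 rows, 118 passed the filter on low counts and were tested, 5 had no count in any library, 1 never exceeded 3 counts and 4 had somewhat more. Among tested members the authors' FPKM, which is per length, had a median of 1.58 and a middle range of 0.881 to 2.43. Zfp771 was highest at 18.5 FPKM, followed by Zfp146, a protein made almost wholly of fingers, at 10.7 FPKM. On chromosome 13 the highest was Zfp346 at 5.22 FPKM, a binder of double-stranded RNA, followed by Zfp369 at 4.91 FPKM, which interacts with the neurotrophin receptor p75. These levels are means over all 9 libraries.

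Between Model and Con, 10 of the 118 tested members were called (8.47%), against 7.64% of all 17550 genes tested. A call is an adjusted p under 0.05 over all genes tested in edgeR's quasi-likelihood test. Of the 10, 6 were higher in Model, where 3.11% of all genes were, and 4 were lower, where 4.52% of all genes were. The members were chosen with this contrast known, so these counts and the differences that follow are a description. CPM values of the groups did not overlap for 34 members (28.8%), 22 higher and 12 lower in Model, against 32.3% of all genes.

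**Figure D1:**
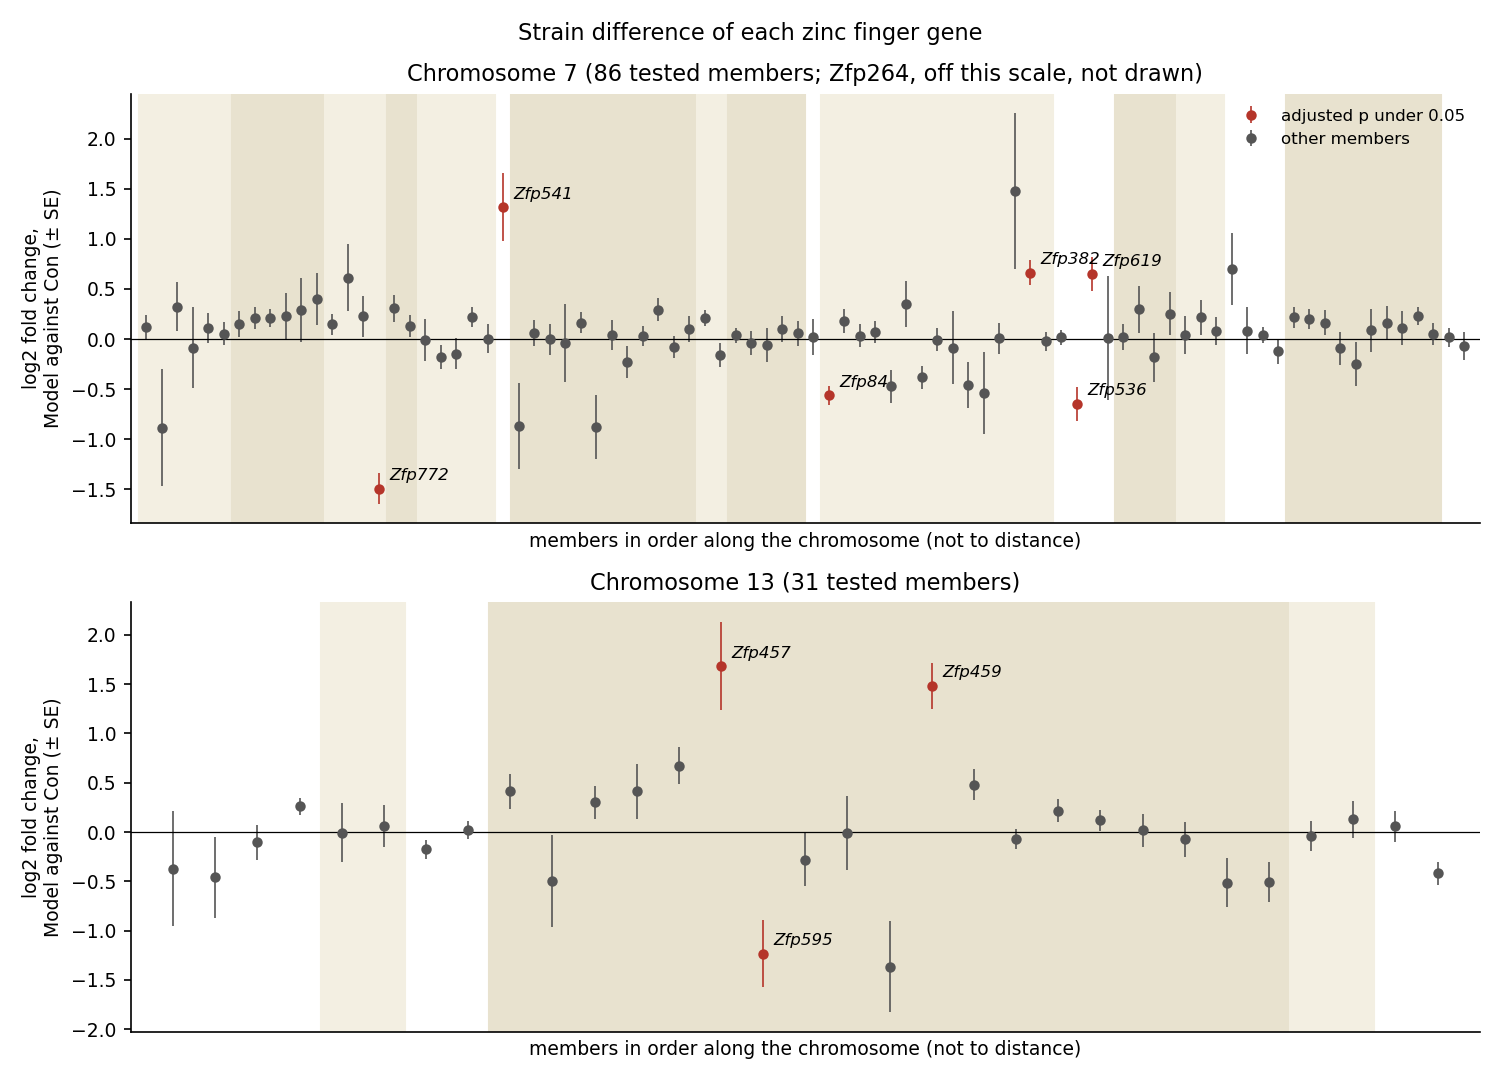
Log2 fold change of each tested member, Model against Con, with its standard error (vertical axis), against its order along chromosome 7 (upper panel) and chromosome 13 (lower panel). Shaded bands mark clusters and red points the called members; Zfp264 on chromosome 7 is off this scale and is not drawn. Called members of opposite sign can be direct neighbours, as Zfp457 at 1.69 and Zfp595 at -1.23 on chromosome 13.

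Zfp264 was detected in every BTBR library and hardly at all in C57BL/6J. The tested one of its 2 rows, which has no entry in GENCODE M21, had 87, 37 and 29 counts in MAN@SKI II libraries and 63, 26 and 66 counts in Model libraries, against 0, 0 and 1 in Con libraries. Every BTBR library lay above every Con library. The ratio of pooled counts scaled by raw library totals, Model over Con, was 153. Its exact 95% interval of 27.0 to 6067 covers counting error only. The same ratio for MAN@SKI II over Con was 163 (28.9 to 6499). Zim3, which overlaps it on the opposite strand, had 0 to 2 counts per library. The strand setting of the counting is not given in the sources used here, and elsewhere reads of overlapping genes cannot be told apart.

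The other called members higher in Model differed by less. Zfp459, whose predicted protein has a KRAB-like stretch and 3 fingers, was at 4.61, 4.38 and 3.51 CPM in MAN@SKI II, 3.84, 3.71 and 3.62 in Model, against 1.69, 1.41 and 0.906 CPM in Con. Its log2 fold change was 1.49 ± 0.23 (SE) for Model against Con. All 6 BTBR libraries were above all 3 Con libraries. Zfp457 was at 1.09, 2.26 and 1.53 CPM in MAN@SKI II, 1.62, 1.39 and 1.17 in Model, against 0.13, 0.648 and 0.48 CPM in Con, a log2 fold change of 1.69 ± 0.45 for Model against Con. Its Con 1 value is below the level of 3 counts. Zfp541, which mouse spermatocytes need to complete meiosis and which is a single member, was at 3.17, 1.63 and 1.98 CPM in MAN@SKI II, 2.40, 1.45 and 2.29 in Model, against 0.651, 0.766 and 1.01 CPM in Con (1.31 ± 0.34 on the log2 scale). Zfp382, whose human counterpart is a KRAB repressor, was at 13.9, 15.3 and 14.1 CPM in MAN@SKI II, 15.2, 16.5 and 13.2 in Model, against 8.20, 10.4 and 9.75 CPM in Con (0.66 ± 0.13). Zfp619, with 33 fingers the longest array among members, was at 7.49, 8.56 and 6.26 CPM in MAN@SKI II, 8.33, 7.31 and 10.1 in Model, against 5.47, 5.95 and 5.01 CPM in Con (0.65 ± 0.17). The groups of BTBR and C57BL/6J libraries did not overlap for any of these 5 genes.

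Among the 4 called members lower in Model, Zfp772 differed most. It was at 6.51, 6.51 and 5.37 CPM in MAN@SKI II, with 4.14, 5.80 and 6.02 in Model, against 14.2 to 15.6 CPM in the 3 Con libraries, a log2 fold change of -1.49 ± 0.15 for Model against Con. It shares its cluster with Zfp264, so 1 short stretch of chromosome 7 held the largest called differences of both signs among clustered members. Zfp84 was at 13.3, 12.5 and 12.5 CPM in MAN@SKI II, 11.9, 13.5 and 11.9 in Model, against 19.1, 17.4 and 18.3 CPM in Con (-0.56 ± 0.10), a small difference on a narrow spread. Zfp536, a single member that restrains neuronal differentiation in mouse cells, was at 15.1, 20.9 and 19.3 CPM in MAN@SKI II, 18.0, 16.2 and 18.4 in Model, against 35.3, 24 and 23.1 CPM in Con (-0.64 ± 0.17). Zfp595 was at 1.44, 2.83 and 1.53 CPM in MAN@SKI II, 1.44, 1.28 and 2.40 in Model, against 5.08, 2.77 and 4.26 CPM in Con (-1.23 ± 0.34). Its MAN@SKI II and Con libraries overlapped, and its near-identical copy Gm28044, which overlaps it, had at most 4 counts in any library.

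**Figure D2:**
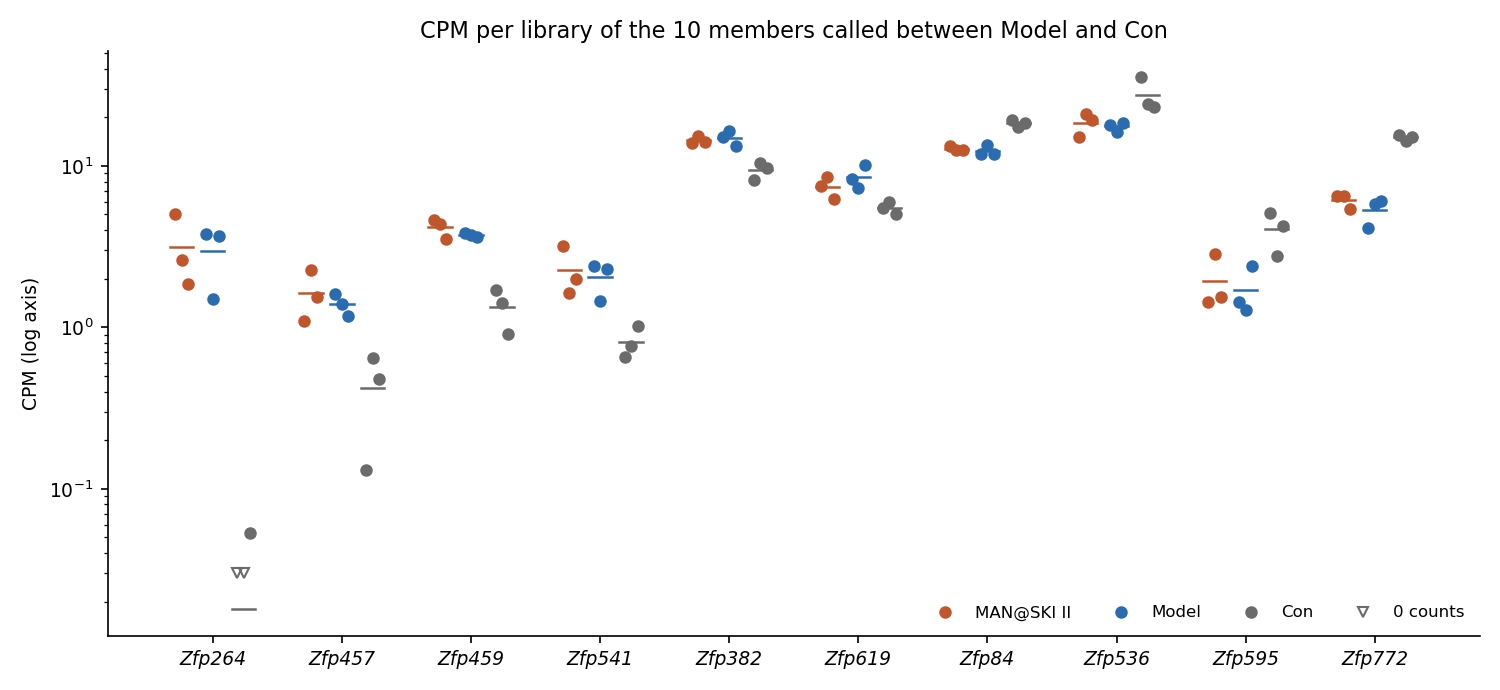
CPM on a log axis in each library (points) and the group mean (bars) for the 10 members called between Model and Con, MAN@SKI II in orange, Model in blue and Con in grey. Open triangles mark libraries with 0 counts and are drawn at an arbitrary height. The treated and the vehicle BTBR libraries lie together for each gene, with Zfp264 at 26 to 87 counts in BTBR and at most 1 count in Con.

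The 10 calls were not equally firm. Zfp264, Zfp459, Zfp772, Zfp84 and Zfp382 kept their call in 15 of 16 other settings, each losing it only when the mean of 5 choroid plexus genes was added as a covariate. Fitted log2 fold changes with that covariate were 1.56 for Zfp459, -1.34 for Zfp772, 0.65 for Zfp382 and -0.37 for Zfp84, and 4.21 for Zfp264, whose fitted value depends on the prior count. Under that covariate, chosen after seeing the data, 1 member was called, Zfp109, and 97 of all genes (0.553%), and the summed CPM of those 5 genes separates the strains without overlap. Zfp457, Zfp595, Zfp541, Zfp536 and Zfp619 lost the call in 6 to 9 of the 16 settings, and leaving out 1 library moved the count between 6 (without Con 1, Con 3, Model 1 or Model 3) and 15 (without MAN@SKI II 2). The share called over all genes moved with it, at 4.66 to 5.10% in those 4 settings and 12.5% when MAN@SKI II 2 was left out.

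The question of clustered against single members had no clear answer in the counts. Of 99 clustered members tested, 8 were called between Model and Con (8.08%, 5 higher and 3 lower), against 2 of 19 single members (10.5%) and 7.64% of all genes. The median absolute log2 fold change was 0.18 for clustered members, 0.10 for single members and 0.145 for all genes. Median standard errors were 0.158 for clustered and 0.162 for single members, against 0.139 for all genes. Median levels were unlike, at 9.39 CPM for clustered members, 18.3 CPM for single members and 17.3 CPM for all genes. The part of level in these medians was not tested. Differences over 0.5 on the log2 scale were found in 18.2% of clustered members, 15.8% of single members and 14.7% of all genes. CPM values of Model and Con did not overlap for 30.3% of clustered and 21.1% of single members, against 32.3% of all genes. The single values rest on few genes. Leaving out 1 library took the single count to between 0 (without Con 1) and 4 (without MAN@SKI II 2), and without Model 1 the medians were 0.162 for clustered and 0.215 for single members, the opposite order, while without Con 3 they were 0.170 and 0.171. With the choroid plexus covariate both medians were 0.301. Split by chromosome, with all 9 libraries and no covariate, the called shares went opposite ways. On chromosome 7, 5 of 76 clustered and 2 of 11 single members were called, and 11 and 3 differed by over 0.5. On chromosome 13, 3 of 23 and 0 of 8 were called, against 7.64% of all genes, and 7 and 0 differed by that much. Clustered medians were above single ones on both, at 0.164 and 0.0706 on chromosome 7 and 0.303 and 0.218 on chromosome 13.

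Zfp-number genes on the other chromosomes were a larger set. They had the same order of medians as all members together but the opposite order of called shares. There 12 of 117 clustered genes (10.3%) and 8 of 103 single genes (7.77%) were called, with median absolute log2 fold changes of 0.133 and 0.114. Rows without a Zfp-number name inside the chromosome 7 and 13 cluster spans had 6 of 80 called (7.5%), against 7.64% of all genes. Their median was 0.164, close to that of the clustered members themselves. That set still holds rows with other Zfp symbols, such as Zfp874a and Zfp85os. Other genes on the same chromosomes had 175 of 1932 called (9.06%) with a median of 0.160. Among the members, those with a KRAB-like stretch had 5 of 51 called (9.80%) and those with a predicted protein and no such stretch 4 of 65 (6.15%), against 7.64% of all genes, with medians of 0.210 and 0.146. Some members had a transcript near-identical to one of another row, 97% identical over at least 150 bases. Each match also had to span 50% or more of whichever sequence was shorter. Of 30 such members tested, 1 was called (3.33%), against 7.64% of all genes, and their median was 0.095. The matching row can overlap the member itself, as Gm28044 does for Zfp595 and Gm26965 for Zfp58, so not every match is a separate copy elsewhere.

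**Figure D3:**
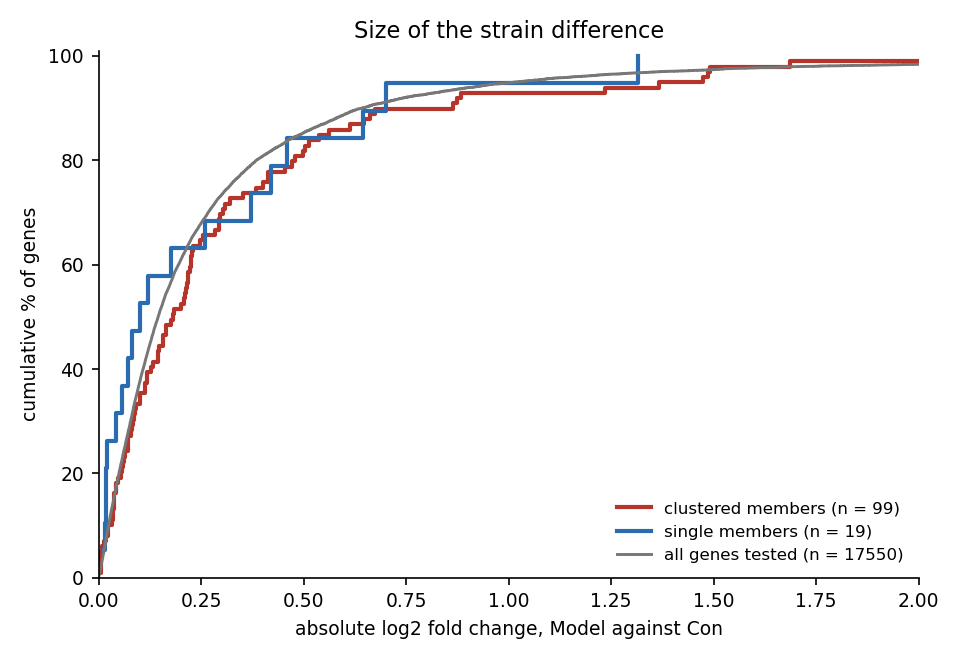
Cumulative percentage of genes (vertical axis) by absolute log2 fold change, Model against Con (horizontal axis, drawn to 2), for the 99 clustered members, the 19 single members and all 17550 genes tested. The clustered line runs to the right of the single line at small differences, with medians of 0.18 and 0.10, and the lines cross at larger ones.

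The differences of clustered members were unevenly spread over the clusters. Of 17 clusters, 4 held a called member. The cluster from Zfp712 to Zfp273, at chr13:67186660-67975121 on GRCm39, had 19 tested members, 3 called and a median absolute log2 fold change of 0.41. The cluster from Zfp84 to Zfp146, at chr7:29467977-29869175, had 15 tested, 2 called and a median of 0.35, and that from Zfp264 to Zfp772, at chr7:6980245-7212997, had 5 tested, 2 called and a median of 0.61. The fourth, Zfp939 and Zfp619, had 1 tested member. Against these, the 12 tested members from Zfp180 to Zfp575 had no call and a median of 0.09, the 5 from Zfp60 to Zfp850 no call and 0.06, and the 10 from Zfp553 to Zfp646 no call and 0.16. Without the large chromosome 13 cluster, clustered members had 5 of 80 called (6.25%), against 7.64% of all genes, and a median of 0.156, against 0.145. The clusters were named here with these values in view, so their order is a description.

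Within the large chromosome 13 cluster, neighbours went in opposite directions. Fold changes of Model against Con were above 0 for 10 members and below 0 for 9, from -1.37 to 1.69 on the log2 scale. Zfp458, beside Zfp457, was at 9.73, 14.4 and 10.4 CPM in MAN@SKI II, 8.81, 9.45 and 10.5 in Model, against 5.92, 7.25 and 4.90 CPM in Con (0.67 ± 0.19, not called). Zfp58 was at 5.27 to 5.97 CPM in Model, against 3.64 to 4.80 CPM in Con (0.48 ± 0.16, not called). Zfp429 was at 0.30, 1.10 and 0.725 CPM in Model, against 2.21, 1.53 and 1.81 CPM in Con (-1.37 ± 0.46, not called), and it has near-identical copies, among them Zfp456 in the same cluster. The summed level of the 19 members hardly set the strains apart: it was 157.7, 196.5 and 150.6 CPM in MAN@SKI II, 160.4, 144.6 and 163.1 in Model, against 147.5, 150.5 and 139.8 CPM in Con. Zfp738, the member of the cluster with the most CPM, was at 51.0, 63.6 and 53.0 CPM in MAN@SKI II, 59.3, 49.3 and 56.9 in Model, against 54.9, 52.1 and 45.6 CPM in Con (0.12 ± 0.11).

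**Figure D4:**
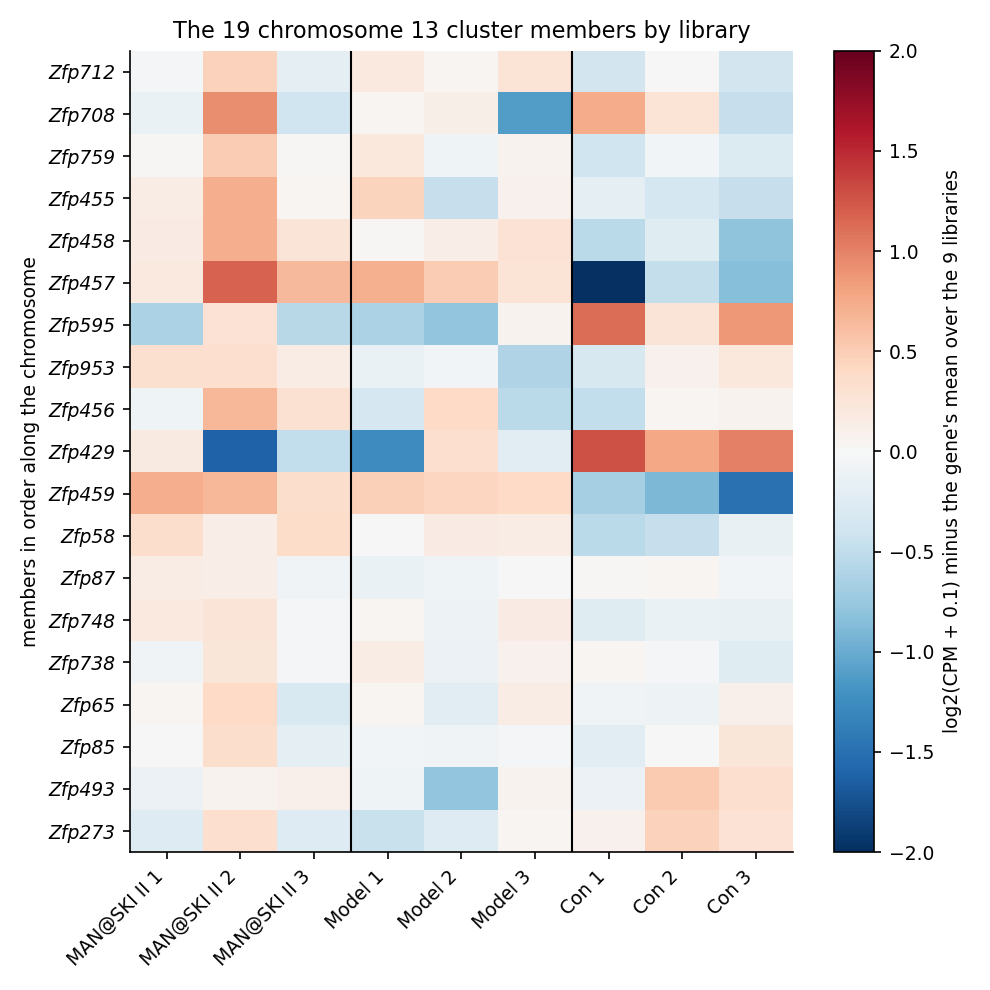
The 19 tested members of the chromosome 13 cluster in order along the chromosome (rows) in each library (columns, MAN@SKI II, Model, Con), coloured by log2(CPM + 0.1) minus the gene's mean over the 9 libraries. Zfp457 and Zfp459 are lower in the 3 Con libraries than in any BTBR library, and Zfp429 is higher. MAN@SKI II 2 is the highest library for 12 of the 19, a share not computed for all genes.

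Genes without a Zfp-number name inside the spans followed no single direction either, and are given because they lie between the members. They were picked as the called ones after values were seen. Zfp874a was at 6.61 to 7.53 CPM in Model, against 12.1 to 14.2 CPM in Con (-0.84 ± 0.12), Zfp85os at 0.58 to 0.659 CPM in Model, against 1.63 to 4.13 CPM in Con (-2.36 ± 0.37), and Gm49064 was lower in Model too (-1.81 ± 0.41), all in the chromosome 13 cluster. F630042J09Rik, also there, was at 1.34 to 1.56 CPM in Model, against 0.195 to 0.426 CPM in Con (1.98 ± 0.35), and Gm48691, in the cluster from Zfp808 to Zfp934, was higher in Model too (2.37 ± 0.63). C230062I16Rik, between members of the large chromosome 7 cluster, was at 3.86, 3.82 and 3.45 CPM in MAN@SKI II, with 0.719, 3.07 and 1.06 in Model, against 0 counts in all 3 Con libraries. It has a transcript near-identical to one of member Zfp74, and Gm48691 has one near-identical to one of member Zfp934. Sharing of reads with those members was not tested.

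None of the members with the highest CPM was called between strains, and most differed little. On chromosome 7, Zfp60 was at 43.9 ± 1.94 CPM in Model, against 42.8 ± 0.899 CPM in Con (SD, n = 3 each), Zfp146 at 40.5 ± 4.02 and Zfp592 at 40.2 ± 2.98 CPM in Model, against 41.1 ± 1.87 and 39.0 ± 1.31 CPM in Con. Their log2 fold changes of 0.04 ± 0.07, -0.02 ± 0.09 and 0.04 ± 0.08 were within 1 standard error of 0. Zfp715 (0.04 ± 0.19) and Zfp771 (0.20 ± 0.10) were not called either. On chromosome 13, Zfp346 was at 50.4 ± 3.2 CPM in Model, against 42.1 ± 1.80 CPM in Con (0.26 ± 0.08) and Zfp131, a BTB zinc finger factor, at 29.3 ± 2.82 CPM in Model, against 39.2 ± 4.27 CPM in Con (-0.42 ± 0.12). Neither was called, although their Model and Con libraries did not overlap. Zfp131 was called in DESeq2, with the replicate block, with the 6 compared libraries alone and without MAN@SKI II 2 or MAN@SKI II 3, and Zfp346 with the 6 libraries alone and without MAN@SKI II 2. Zfp369 (0.02 ± 0.09) and Zfp367 (-0.18 ± 0.10) were not called. In the remaining larger clusters the members with the most CPM were Zfp865, Zfp444, Zfp954, Zfp329, Zfp235 and Zfp141, with log2 fold changes between -0.08 and 0.21. Those with the largest differences were Zfp28 (0.40 ± 0.26), Zfp324 (0.22 ± 0.10), Zfp109 (-0.87 ± 0.32), Zfp974 (0.10 ± 0.13), Zfp977 (0.30 ± 0.24), Zfp764 (-0.25 ± 0.22) and Zfp579 (-0.88 ± 0.58), and none was called. Under the choroid plexus covariate Zfp764 turned to 0.69 and Zfp579 to 0.37.

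A few members varied several-fold between mice of 1 group. Zfp260, described in rat heart cells as a partner of Gata4, was at 79.1, 18.8 and 12.0 CPM in MAN@SKI II, 21.6, 30.3 and 31.8 in Model, against 7.03, 16.1 and 6.98 CPM in Con. Model lay above Con in every library, at 1.47 ± 0.78 on the log2 scale, and was not called. Zfp180 was at 11.2 to 16.2 CPM in 8 libraries and at 45.2 CPM in Con 2, and Zfp788 reached 56.4 CPM in MAN@SKI II 2, 36.0 CPM in Model 2 and 43.6 CPM in Con 2, against 11.1 to 24.5 CPM in the other 6 libraries. Among the 88 members with a mean of at least 5 CPM, the highest library was at least 2 times the lowest for 4 members in MAN@SKI II (4.55%), 1 in Model (1.14%) and 4 in Con (4.55%), against 3.90%, 2.02% and 1.86% of all genes at that level. Zfp579 ranged over 3.55 times within Model, at 21.8, 16.3 and 6.13 CPM.

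**Figure D5:**
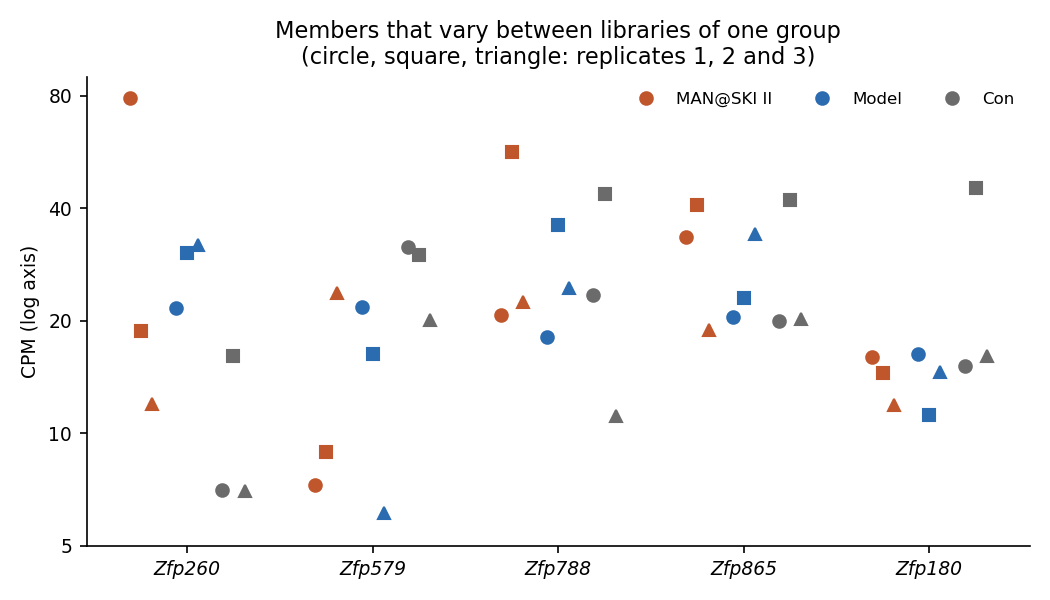
CPM on a log axis in each library for 5 members with a wide spread within groups, MAN@SKI II in orange, Model in blue and Con in grey, with circles, squares and triangles for replicates 1, 2 and 3. MAN@SKI II 1 stands at 79.1 CPM for Zfp260 and Con 2 at 45.2 CPM for Zfp180, each apart from the other libraries of its group.

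Treatment with MAN@SKI II called no member. None of the 118 tested members, clustered or single, passed between MAN@SKI II and Model, where 0.0% of all genes did in edgeR. In that test 4 members had an unadjusted p under 0.05, as did 846 of 17550 genes. DESeq2 called 0 members and 10 of all 24599 genes it tested. The median absolute log2 fold change was 0.128 for clustered members, 0.115 for single members and 0.107 for all genes. Libraries of MAN@SKI II and Model did not overlap for 10 members (8.47%), against 9.43% of all genes. Of the 10 strain-called members, none differed between MAN@SKI II and Model by more than 0.21 on the log2 scale, with standard errors of 0.10 to 0.42.

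The smallest p in that contrast belonged to Zfp36. Tristetraprolin's gene was at 3.63, 2.90 and 3.51 CPM in MAN@SKI II, with 6.35, 4.23 and 5.24 in Model, against 4.64 to 5.60 CPM in Con. The treated libraries were below all others, with a log2 fold change of -0.65 ± 0.19 for MAN@SKI II against Model that did not pass (edgeR adjusted p = 0.914). Zfp444 (-0.37 ± 0.11), Zfp771 (-0.29 ± 0.10), Zfp688 (-0.62 ± 0.22) and Zfp428 (-0.23 ± 0.11) followed, each with an edgeR adjusted p of 0.914. In the large chromosome 13 cluster 17 of 19 members were above 0 in this contrast, with a median of 0.16 and no call. That lean rested on 1 library: without MAN@SKI II 2, the library with the high mitochondrial share, 10 of 19 were above 0 and the median was 0.03. MAN@SKI II 2 was the highest of the 9 libraries for 33 of the 118 members, a share that was not computed for all genes. The part of MAN@SKI II 2 in other results was not tested beyond leaving it out.

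Treated BTBR mice were also set beside Con, a comparison that shares the Con libraries with Model against Con. In it 11 of 118 members were called (9.32%), against 8.13% of all genes, with 9 of 99 clustered and 2 of 19 single. Libraries did not overlap for 29.7% of members and 27.3% of all genes. Log2 fold changes against Con were 1.65 ± 0.23 in MAN@SKI II and 1.49 ± 0.23 in Model for Zfp459, 1.90 ± 0.45 and 1.69 ± 0.45 for Zfp457, -1.29 ± 0.15 and -1.49 ± 0.15 for Zfp772, and 0.93 ± 0.18 and 0.67 ± 0.19 for Zfp458.

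The listed genes of the machinery that KRAB zinc finger proteins use mostly differed little. Of 26 listed symbols of co-repressor and silencing genes, Fam208a matched no row and the other 25 were tested. Of these, 1 was called between Model and Con, against 7.64% of all genes. It was Hdac1, a histone deacetylase, at 17.6, 14.8 and 16.1 CPM in Model, against 26.3, 28.1 and 27.0 CPM in Con (-0.75 ± 0.11). The list's median absolute log2 fold change was 0.065, against 0.145 for all genes. That comparison is not matched for level, as most listed genes were above the all-gene median of 17.3 CPM. Trim28 was at 143 ± 4.34 CPM in Model, against 127 ± 2.90 CPM in Con (0.17 ± 0.06, not called). Its Model libraries, at 141 to 148 CPM, lay above its Con libraries, at 124 to 130 CPM. Model and Con did not overlap for 32.3% of all genes. Trim28 lies 13.4 kb from the end of the cluster from Zfp329 to Zfp446 on chromosome 7. Setdb1 was at 55.2 ± 2.21 CPM in Model, against 57.8 ± 2.74 CPM in Con (-0.06 ± 0.07). In MAN@SKI II against Model 0 of the 25 passed in edgeR, with the lowest adjusted p at 0.914. In MAN@SKI II against Con 2 were called, Hdac1 lower (-0.72 ± 0.11) and Trim28 higher (0.23 ± 0.06), against 8.13% of all genes. The part of the lower summed choroid plexus, oligodendrocyte, astrocyte and microglia markers in these strain differences was not tested beyond the covariate above.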

How the data were processed

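Poly(A)-selected RNA of 9 hippocampi was read as 150-base pairs. The authors deposited 1 gene table with read counts and FPKM per library. Per the submitters' processing notes the build was GRCm39 and the tools included Bowtie2, edgeR 3.2.0, HISAT2 2.0.4 and StringTie 1.3.3b. What each tool did, which program counted reads, with which gene models and whether by strand, is not given in the sources used here. The deposited FPKM matched counts divided by length and library total in 15432 genes checked. Rows without a symbol (523) stayed in the fit.

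Deposited counts were fitted in edgeR 4.0.16 (R 4.3.3): TMM, filterByExpr, 1 quasi-likelihood fit with the 3 groups, Benjamini-Hochberg over 17550 genes, threshold 0.05. A standard error is the absolute log2 fold change over the root of F. The script was tested on simulated data. Clusters used a 250 kb gap. Named members were those called with at least 1 CPM, the 5 of highest CPM per chromosome, the highest and most different of each cluster with 4 or more tested, and the 5 of smallest p for treatment; Zfp458, Zfp58, Zfp429, Zfp180, Zfp788 and the neighbours inside spans were added after their values were seen. Members, lists and the rule were chosen with earlier results of these data known. Alternatives were DESeq2 1.42.0, other scaling and filters, fewer libraries, a replicate block and a choroid plexus covariate. With 3 mice a group, p-values rest on the spread between these libraries. BLAST 2.17.0 found near-identical transcripts in GENCODE M21.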

Additional observations from a re-analysis of the deposited data

How the results depend on the processing

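Between Model and Con, 10 members were called, and the count stayed at 9 to 15 under DESeq2, other size factors, other filters on low counts or the 6 compared libraries alone, where the share over all genes was 7.19% in DESeq2, 7.58% with other size factors, 7.75% with a minimum of 1 CPM, 4.42% with no filter and 12.1% with the 6 libraries. With the choroid plexus covariate it was 1, all clustered, with 0 single, the median absolute difference was 0.301 for single and for clustered members, and 1 was called between MAN@SKI II and Con. With the 6 compared libraries alone, 4 single members were called. Leaving out 1 library gave 6 to 15 calls for Model against Con (clustered 5 to 11, single 0 to 4) and 6 to 12 for MAN@SKI II against Con. Cluster limits of 100 kb or 1000 kb in place of 250 kb put 98 or 116 members in clusters. Called shares and medians under those limits are not given here. MAN@SKI II against Model had 0 calls among members in every setting run. With a replicate block, 8 members were called, 6 of them among the 10, beside 5.95% of all genes, and 0 for MAN@SKI II against Model. Replicate numbers gave no pairing: deviations of same-numbered libraries correlated at -0.0639 to 0.0525.

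Some signs turned, mostly of members near 0 between strains but also of Zfp579 (-0.88) and Zfp764 (-0.25). Under the covariate Zfp738 was at -0.047, Zfp579 at 0.37, Zfp954 at -0.027, Zfp141 at -0.58, Zfp715 at -0.15 and Zfp764 at 0.69 on the log2 scale. Zfp865 was at 0.0105 with the replicate block, and Zfp235 at 0.0004 in DESeq2 and 0.0027 without a filter. Leaving out 1 library gave -0.0375 to 0.0686 for Zfp369, -0.34 to 0.36 for Zfp865, -0.21 to 0.20 for Zfp329, -0.0721 to 0.0572 for Zfp235, -0.0013 to 0.0566 for Zfp60, -0.11 to 0.033 for Zfp146, -0.0317 to 0.10 for Zfp141, -0.11 to 0.15 for Zfp715 and -0.006 to 0.10 for Zfp592. The cause was not tested. At these depths members under 1 CPM rest on few counts a library, and small differences in them were not detectable.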
